A study of Rattus norvegicus with 40 samples.

Results

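The mitochondrially encoded transcripts are the RNAs copied from the circular genome inside the mitochondrion. They were taken as every gene that the hippocampus table places on chromosome MT, and each was followed by its Ensembl identifier through the tables of the other 3 regions. There were 35 such genes among 25958 gene identifiers in any table: 13 mRNAs, 2 ribosomal RNAs and 20 transfer RNAs. All 35 were present in all 4 tables. Rats were exposed to blast or handled as sham controls, and brain RNA was taken 12 months later from the hippocampus, amygdala, anterior cortex and cerebellum. Each of the 8 combinations of region and treatment had 5 libraries, which gave 40 libraries in all. The sources used here give neither strain, sex and age nor the strength and number of blasts. Libraries go by their titles, such as Hip_4, Hip_8, Hip_22, Hip_88 and Hip_666 for blast and Hip_11, Hip_13, Hip_14, Hip_15 and Hip_33 for sham hippocampus. The other regions have the same numbers apart from 1 amygdala library, and values below follow that order. In the amygdala the sham libraries were 11, 14, 15, 33 and 1 whose table column carried a number that no title had, which is called unnumbered and comes last.

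Mammalian mitochondrial DNA encodes a small set of hydrophobic subunits of the respiratory chain together with the rRNAs and tRNAs needed to translate them inside the organelle. Both strands are transcribed as long precursors, which are cleaved at the tRNAs to release the mRNAs and rRNAs, so that the steady level of each RNA depends on its own stability as well as on transcription. All other subunits of the chain, and the proteins that transcribe, process and translate the mitochondrial genome, are encoded in the nucleus. Neurons draw most of their ATP from this chain.

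In the tables, the small-subunit rRNA gene (ENSRNOG00000030478) lay at MT positions 68 to 1025 and the large-subunit rRNA gene (ENSRNOG00000043866) at 1094 to 2664, both on the plus strand. The mRNA genes followed in the order Mt-nd1, Mt-nd2, Mt-co1, Mt-co2, Mt-atp8, Mt-atp6, Mt-co3, Mt-nd3, Mt-nd4l, Mt-nd4, Mt-nd5, Mt-nd6 and Mt-cyb, from position 2740 to 15278, with tRNA genes of 60 to 75 bases between them. Mt-nd6, at 13543 to 14061, was the mRNA gene on the minus strand, with 8 of the 20 tRNA genes. Neighbouring genes overlapped by 43 bases for Mt-atp8 and Mt-atp6, by 7 for Mt-nd4l and Mt-nd4, and by 23 for Mt-nd5 and Mt-nd6 on opposite strands. No source used here says whether counting used the strand, so reads of Mt-nd6 and antisense reads over it cannot be told apart. How reads that match both mitochondrial DNA and its nuclear copies were assigned was not stated either, and all member counts carry that uncertainty. Nor do the sources used here give the genome build, or say whether RNA was selected by its poly(A) tail or by depletion of rRNA, which bears on how fully rRNAs and tRNAs were captured.

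Library totals ran from 11268097 to 37128383 counts. Anterior cortex libraries 8 (blast), 11, 13 and 15 (sham) had counts in 16577 to 17845 genes. The other 6 anterior cortex libraries had counts in 18744 to 20748. The main comparisons that rest on libraries 8, 11, 13 and 15 are given with and without them. In the hippocampus, libraries Hip_666, Hip_8 and Hip_11 held 6009, 6530 and 4105 CPM (counts per 1000000 library counts) of Ttr, a transcript of the choroid plexus, against 8.54 to 181 in the other 7. Microglial markers were lower in the cerebellum: all 5 of the list had counts, and they summed to 61.8 to 81.6 CPM in sham cerebellum against 137 to 304 CPM in the other sham regions. Neuronal markers, 5 of 5 with counts, summed to 3914 to 4249.6 CPM in sham cerebellum and 2503 to 4515 CPM in the other sham regions, so these ranges overlapped. Of 5 endothelial markers, Cldn5, Pecam1 and Ly6c1 were at 0 or not listed. The 2 with counts summed to 104 to 132 CPM in sham cerebellum and 114 to 356 CPM in the other sham regions. These are bulk samples, in which fewer cells of a type and less RNA per cell cannot be told apart. The labels do not say that the libraries of a group come from separate animals, so p-values measure only the spread between these samples.

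Mitochondrially encoded RNA took up a large part of each library, least in the cerebellum. Its summed share of library counts in sham hippocampus was 9.5, 10.4, 11.5, 8.57 and 11.6%, and in blast hippocampus 12.7, 9.73, 10.2, 11.9 and 9.79%. In sham amygdala it was 14.2, 13.3, 11.8, 16.8 and 15.1%, and in blast amygdala 13.3, 12.1, 15.3, 13.7 and 13.9%. The hippocampus lay below the amygdala in every sham library, while blast hippocampus libraries 4 and 88, at 12.7 and 11.9%, lay above the lowest amygdala library. Anterior cortex libraries held 17.5, 16.0, 14.1, 10.1 and 20.1% in sham and 17.6, 14.9, 14.5, 15.4 and 15.5% in blast. The anterior cortex had the highest and the most spread values, with sham library 15 the lowest of its 10 and sham library 33 the highest of all 40. Cerebellar libraries held 7.08, 7.60, 7.70, 7.32 and 7.23% in sham and 7.92, 7.16, 7.74, 7.5 and 6.71% in blast. All 10 cerebellar libraries lay below all 30 libraries of the other regions.

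**Figure D1:**
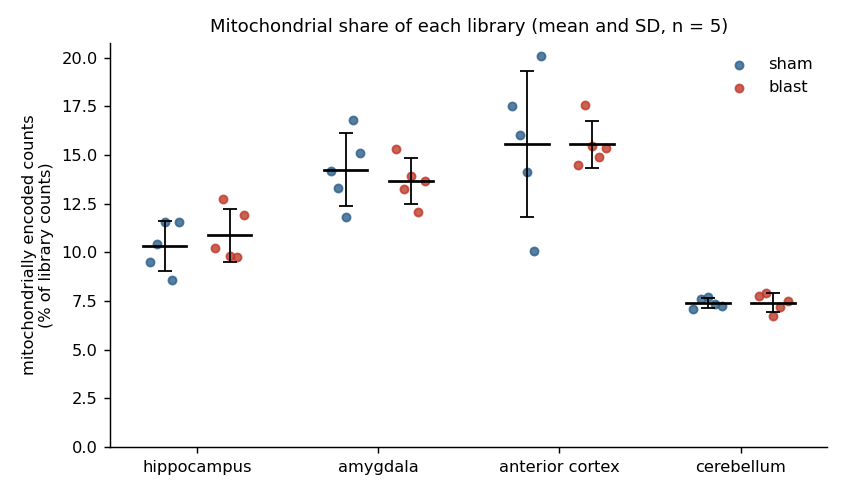
Summed share of library counts taken by the 35 mitochondrially encoded genes (percent, y axis) in each of 40 libraries by region and treatment (x axis), with the mean and SD of 5 libraries. Cerebellar libraries sit between 6.71 and 7.92%, below every library of the other regions, and blast and sham overlap in each region.

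Blast and sham libraries overlapped in this summed share in every region. The hippocampus averaged 10.9 ± 1.36% in blast and 10.3 ± 1.30% in sham (SD, n = 5 each), a difference of 0.553 percentage points (SE 0.841). The amygdala averaged 13.6 ± 1.17% in blast and 14.2 ± 1.88% in sham (SD, n = 5 each), a difference of -0.597 percentage points (SE 0.992). In both regions the difference was smaller than its standard error. For the anterior cortex the means were 15.5 ± 1.20% in blast and 15.6 ± 3.76% in sham (SD, n = 5 each), a difference of -0.0108 percentage points (SE 1.77). For the cerebellum they were 7.40 ± 0.481% in blast and 7.39 ± 0.260% in sham (SD, n = 5 each), a difference of 0.0171 percentage points (SE 0.244). These also lay within 1 standard error. No test was made of the summed share, since it is a score over genes that were chosen with earlier results known.

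Levels differed widely between the genes although their precursors are shared. On a scale of CPM per kilobase of gene length, averaged over the 10 libraries of each region (mean ± SD), Mt-co1 stood at 17219.7 ± 1992 in the hippocampus, 23105 ± 2287 in the amygdala, 25414 ± 6496 in the anterior cortex and 14146 ± 980.1 in the cerebellum. Mt-atp6, the proton-channel subunit of ATP synthase, stood at 17534 ± 2773, 22840.3 ± 2466, 24887 ± 5121 and 12809.9 ± 794 in the same order of regions. These neighbours in the order differed by less than their spread in the hippocampus, amygdala and anterior cortex, and by more than either SD in the cerebellum. Each held the first or second rank in every region. Mt-co3 was the third in all 4 regions, from 9023 in the cerebellum to 19263 in the anterior cortex. At the other end were Mt-nd4 and Mt-atp8. Mt-nd4 ranked 14 of the 15 mRNAs and rRNAs in each region, with levels of 785 ± 273, 933 ± 154, 1109 ± 307 and 382 ± 91.6. Mt-atp8 ranked 15, with levels of 549.5 ± 90.7, 706 ± 101, 888 ± 213 and 218 ± 33.7. Mt-atp8 shares 43 of its 204 bases with the higher Mt-atp6, so the way shared bases were counted bears on its value. Mt-nd4 shares 7 of its 1378 bases with Mt-nd4l.

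**Figure D2:**
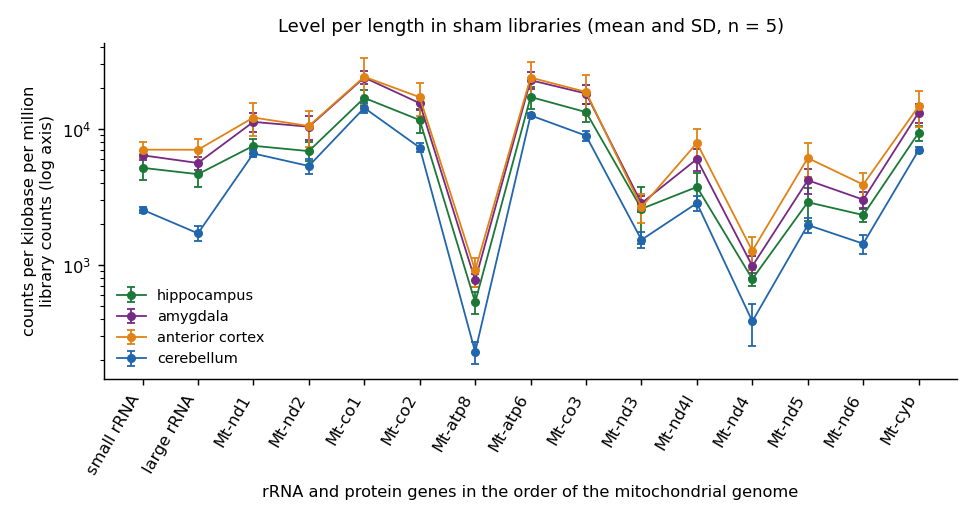
Level of each of the 13 mRNAs and 2 rRNAs in the 20 sham libraries, in CPM per kilobase of gene length on a log axis, with genes in their order on the mitochondrial genome and lines for the 4 regions. Mt-co1 and Mt-atp6 are highest, Mt-atp8 and Mt-nd4 lowest, and the cerebellum runs below the other regions.

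Complex I takes electrons from NADH, and its 7 mitochondrial subunits (Nd genes) form the membrane arm that pumps protons. In sham libraries Mt-nd1, which lies next to the quinone site, made up 0.718 ± 0.0919, 1.08 ± 0.177, 1.16 ± 0.313 and 0.630 ± 0.0344% of library counts in the hippocampus, amygdala, anterior cortex and cerebellum (mean ± SD, n = 5 each). Mt-nd2, a pumping subunit, made up 0.713 ± 0.115, 1.08 ± 0.214, 1.09 ± 0.322 and 0.555 ± 0.0681%. Mt-nd5, the pumping subunit at the far end of the arm, made up 0.529 ± 0.143, 0.768 ± 0.163, 1.12 ± 0.314 and 0.36 ± 0.0441%. All 3 had their lowest mean in the cerebellum and their highest in the anterior cortex. For Mt-nd5, sham anterior cortex libraries 11, 13 and 15, which had few genes, held 1.37, 1.39 and 1.18%. Libraries 14 and 33 held 0.619 and 1.04%. For Mt-nd4, the other large pumping subunit, the shares were 0.109 ± 0.0119, 0.135 ± 0.0252, 0.175 ± 0.0475 and 0.0530 ± 0.0180%. The small subunits Mt-nd4l and Mt-nd3 made up 0.111 ± 0.0302, 0.178 ± 0.0316, 0.234 ± 0.0618 and 0.0846 ± 0.0108% and 0.0899 ± 0.0407, 0.0988 ± 0.0134, 0.0926 ± 0.0221 and 0.0532 ± 0.00714%. In the hippocampus Mt-nd3 was uneven between sham libraries, of which library 14 held 0.161% and the other 4 sham libraries 0.0562 to 0.0812%.

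Mt-nd6, the complex I subunit on the minus strand, made up 0.111, 0.104, 0.129, 0.121 and 0.138% of library counts in sham hippocampus and 0.148, 0.117, 0.104, 0.121 and 0.119% in blast hippocampus. The amygdala held 0.130, 0.161, 0.145, 0.184 and 0.164% in sham and 0.135, 0.115, 0.156, 0.130 and 0.138% in blast. Anterior cortex libraries held 0.221, 0.242, 0.132, 0.231 and 0.185% in sham and 0.173, 0.206, 0.122, 0.127 and 0.155% in blast. The 4 anterior cortex libraries above 0.2% were the 4 with few genes, and blast and sham overlapped in these 3 regions. The cerebellum held 0.0640, 0.0661, 0.0925, 0.0788 and 0.0704% in sham and 0.0703, 0.0626, 0.0668, 0.0716 and 0.0622% in blast, again with overlap and with all 10 values below every library of the other regions.

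Mt-cyb encodes cytochrome b, the redox subunit of complex III, which passes electrons on to cytochrome c. Its shares in sham hippocampus, amygdala, anterior cortex and cerebellum were 1.07 ± 0.138, 1.51 ± 0.240, 1.68 ± 0.50 and 0.797 ± 0.0374%. Complex IV, cytochrome c oxidase, reduces oxygen, and Mt-co1 carries its catalytic centre. Mt-co1 made up 2.31, 2.73, 3.07, 2.20 and 2.74% in sham hippocampus and 3.01, 2.40, 2.67, 3.0 and 2.47% in blast hippocampus. In the amygdala the shares were 3.67, 3.51, 3.17, 4.27 and 3.8% in sham and 3.33, 3.07, 3.86, 3.43 and 3.58% in blast. Groups overlapped in both regions. In the anterior cortex they were 3.67, 3.33, 4.3, 1.78 and 5.60% in sham and 4.70, 3.39, 4.17, 4.25 and 4.07% in blast, with sham library 15 lowest and sham library 33 highest. In the cerebellum they were 2.03, 2.18, 2.29, 2.45 and 2.07% in sham and 2.31, 2.13, 2.29, 2.15 and 1.95% in blast, and these groups overlapped too. Mt-co2, which receives electrons from cytochrome c, made up 0.794 ± 0.156, 1.06 ± 0.107, 1.17 ± 0.323 and 0.499 ± 0.0379% in the 4 sham regions, and the core subunit Mt-co3 1.04 ± 0.163, 1.43 ± 0.230, 1.47 ± 0.474 and 0.699 ± 0.0553%. ATP synthase turns the proton gradient into ATP, and its subunit Mt-atp6 made up 1.17 ± 0.223, 1.55 ± 0.225, 1.62 ± 0.481 and 0.856 ± 0.0390%. Its small partner Mt-atp8 made up 0.0108 ± 0.00196, 0.0157 ± 0.00177, 0.0186 ± 0.00452 and 0.00468 ± 0.000871%. Every mean of these 6 genes was lowest in the cerebellum.

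The rRNAs form the core of the mitochondrial ribosome. The large-subunit rRNA made up 0.711, 0.561, 0.906, 0.624 and 0.847% of library counts in sham hippocampus and 0.704, 0.627, 0.591, 0.671 and 0.615% in blast hippocampus. In the amygdala it was 0.827, 0.915, 0.817, 1.04 and 0.812% in sham and 0.631, 0.711, 0.800, 0.701 and 0.810% in blast, where all 5 blast libraries lay below all 5 sham libraries. In the anterior cortex it was 1.43, 1.09, 0.804, 1.14 and 1.06% in sham and 0.817, 1.09, 0.679, 0.823 and 0.913% in blast. In the cerebellum it was 0.250, 0.241, 0.323, 0.248 and 0.278% in sham and 0.238, 0.230, 0.252, 0.226 and 0.269% in blast. Blast and sham overlapped in the hippocampus, anterior cortex and cerebellum.

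The small-subunit rRNA stood at 0.438, 0.455, 0.646, 0.421 and 0.519% in sham hippocampus and 0.523, 0.434, 0.410, 0.525 and 0.441% in blast hippocampus. Its shares were 0.591, 0.618, 0.559, 0.680 and 0.616% in sham amygdala and 0.502, 0.518, 0.587, 0.537 and 0.585% in blast amygdala. Both regions showed overlap between blast and sham. Anterior cortex libraries held 0.708, 0.752, 0.592, 0.567 and 0.752% in sham and 0.651, 0.479, 0.527, 0.576 and 0.664% in blast. Cerebellar libraries held 0.236, 0.256, 0.259, 0.236 and 0.232% in sham and 0.252, 0.224, 0.247, 0.241 and 0.247% in blast. The groups overlapped here as well. Per length, the large-subunit rRNA was at 0.573 to 0.761 of the level of the small-subunit rRNA in the cerebellum, at 0.752 to 0.994 in the hippocampus, at 0.767 to 0.930 in the amygdala and at 0.765 to 1.39 in the anterior cortex. As a part of mitochondrial counts, the rRNAs together made up 6.18 to 7.68% in the cerebellum against 9.66 to 13.5% in the hippocampus, 8.55 to 11.7% in the amygdala and 8.33 to 16.9% in the anterior cortex. The cerebellar ranges of that share lay below those of the other regions.

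The tRNAs, which carry amino acids to the ribosome, were sparsely counted. The tRNA gene ENSRNOG00000029145, on the minus strand at MT 15348 to 15415, held 60.5% of all mitochondrial tRNA counts in the hippocampus, 57.9% in the amygdala, 53.9% in the anterior cortex and 50.8% in the cerebellum. Its level in sham hippocampus was 48.1, 47.0, 61.9, 39.3 and 55.4 CPM and in blast hippocampus 68.0, 40.4, 45.3, 48.7 and 41.8. In sham anterior cortex it was 89.1, 71.7, 65.9, 66.4 and 83.1 and in blast anterior cortex 72.3, 92.3, 60.3, 57.3 and 57.6. The anterior cortex values ran higher than the hippocampal ones with some overlap, and blast and sham overlapped in both. Of the 20 tRNA genes, 11 had a mean count under 10 in the hippocampus, the amygdala and the cerebellum, and 9 in the anterior cortex. Therefore 24 of the 35 genes passed the filter on low counts in the hippocampus, amygdala and cerebellum, 26 in the anterior cortex and 27 in the model of the sham libraries, and all 15 mRNAs and rRNAs were among them each time.

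Within the anterior cortex, the mix of mitochondrial transcripts differed between the 4 libraries with few genes and the other 6, while their summed shares of library counts overlapped, at 10.1 to 17.5% against 14.1 to 20.1%. Mt-co1 made up, of mitochondrial counts, 17.6 to 22.8% in the 4 libraries against 26.4 to 30.5% in the other 6, and Mt-co3 7.51 to 9.28% in the 4 libraries against 9.90 to 10.4% in the other 6. In the opposite direction, Mt-nd5 made up 7.83 to 11.7% in the 4 libraries against 4.39 to 5.18% in the other 6, and the large-subunit rRNA 6.79 to 11.3% in the 4 libraries against 4.65 to 5.91% in the other 6. Mt-nd4l, Mt-nd4, Mt-nd6 and Mt-atp8 also lay above the range of the other 6 libraries. In all, 6 of the 15 mRNAs and rRNAs lay above, 2 below and 7 overlapped. The nuclear-encoded respiratory chain subunits, from a list of 81 gene identifiers, took 0.415 to 0.515% of library counts in the 4 libraries and 0.743 to 0.854% in the other 6. Since 3 of the 4 are sham libraries, this difference runs partly along the treatment. The libraries were set apart by their number of genes with counts, after the data were seen, and no test was made between them.

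**Figure D3:**
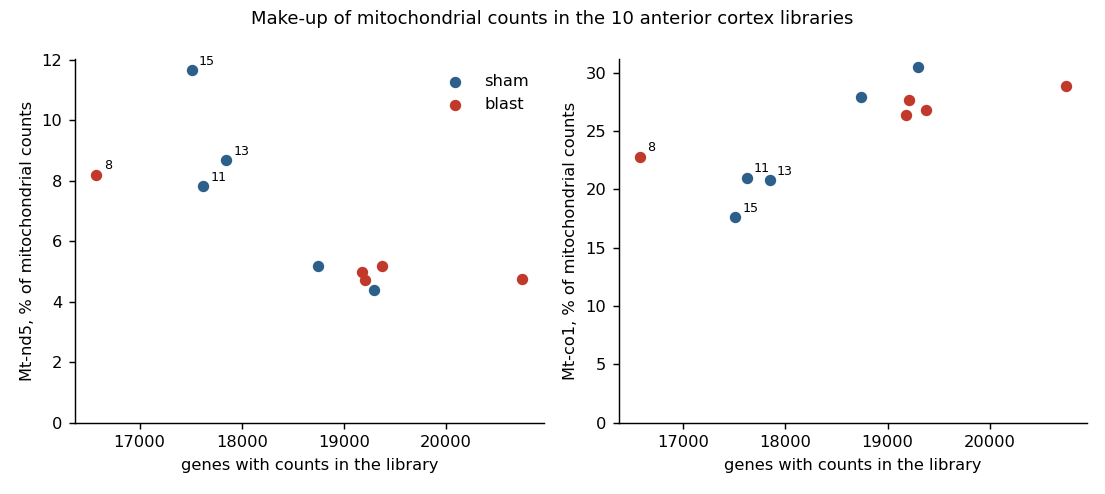
Share of mitochondrial counts (percent, y axis) taken by Mt-nd5 and by Mt-co1 against the number of genes with counts (x axis) in the 10 anterior cortex libraries, coloured by treatment. Libraries 8, 11, 13 and 15, with 16577 to 17845 genes, sit higher for Mt-nd5 and lower for Mt-co1 than the other 6.

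A different mix was seen in sham hippocampus library 14. Mt-nd5 made up 2.75% of its mitochondrial counts against 5.01 to 6.22% in the other 9 hippocampus libraries, and Mt-nd4l 0.532% against 1.08 to 1.36%. Mt-nd3 made up 1.39% against 0.585 to 0.862%, so that neighbouring genes of complex I differed in opposite directions. Nuclear-encoded subunits took 1.25% of its library counts against 0.682 to 0.828% in the others. In blast hippocampus library 4, Mt-nd4 held 0.206% of library counts against 0.0790 to 0.0908% in the other blast libraries.

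The regional differences were tested in the 20 sham libraries with edgeR's quasi-likelihood test, in which a gene was called at a Benjamini-Hochberg adjusted p under 0.05. The 6 pairs of regions share these libraries and are not independent of each other, and a region cannot be told apart from the table it was counted in. Cerebellum was lower than hippocampus for 15 of 27 members tested, against 27.9% of all genes called lower, and the median member log2 fold change was -0.69. It was lower than amygdala for 20 of 27, against 30.8% of all genes, with a median of -1.17. It was lower than anterior cortex for 25 of 27, against 30.4% of all genes, with a median of -1.49. None of the 27 was called higher in the cerebellum in these pairs, where edgeR called 53.3%, 58.5% and 60.2% of all genes in either direction. The all-gene median log2 fold change was -0.02, -0.01 and 0.02. In the 20 blast libraries, which do not share these samples, 19, 19 and 23 of 25 members were called lower in the cerebellum, against 29.6%, 32.2% and 30.7% of all genes. Without the 3 sham anterior cortex libraries with few genes, 20 of 27 members were called lower than in anterior cortex, with a median of -1.37. Of all genes, 4464 were then called lower, against 4776 with those libraries.

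All mRNAs and rRNAs had negative log2 fold changes in the cerebellum in these 3 pairs, but by unequal amounts. The large-subunit rRNA had a log2 fold change of -1.58 ± 0.16 against hippocampus (± SE, edgeR adjusted p = 4.54e-08), -1.86 ± 0.16 against amygdala (adjusted p = 3.81e-09) and -2.28 ± 0.17 against anterior cortex (adjusted p = 1.85e-10). The small-subunit rRNA stood at -1.16 ± 0.12, -1.47 ± 0.13 and -1.71 ± 0.13 in the same order, also called each time. Mt-atp8 stood at -1.34 ± 0.18, -1.89 ± 0.18 and -2.23 ± 0.18, and Mt-atp6 at -0.58 ± 0.18, -1.0 ± 0.18 and -1.16 ± 0.18, all of them called. Of the 7 complex I mRNAs, 6 were called lower than in hippocampus, where their log2 fold changes ran from -1.16 to -0.32, and all 7 were called lower than in amygdala (-1.49 to -0.91) and in anterior cortex (-1.96 to -1.04). The complex I mRNA not called against hippocampus was Mt-nd1, at -0.32 ± 0.17 (edgeR adjusted p = 0.116). Mt-cyb stood at -0.56 ± 0.18, -1.06 ± 0.18 and -1.32 ± 0.18. Among complex IV mRNAs, Mt-co1 stood at -0.38 ± 0.19 against hippocampus, which did not pass (edgeR adjusted p = 0.109), at -0.88 ± 0.19 against amygdala (adjusted p = 0.000567) and at -0.99 ± 0.19 against anterior cortex. Mt-co2 and Mt-co3 were called lower in all 3 pairs.

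The largest and smallest member changes in these pairs included tRNAs of low count. Against hippocampus, the highest values were 0.63 ± 0.41 for ENSRNOG00000031333 and 0.30 ± 0.33 for ENSRNOG00000032609, neither called, and the lowest were the large-subunit rRNA and Mt-atp8. Against amygdala, ENSRNOG00000029389 stood at 0.48 ± 0.61 and ENSRNOG00000031333 at -0.36 ± 0.40, neither called, and Mt-atp8 and the large-subunit rRNA were again lowest. Against anterior cortex the lowest was ENSRNOG00000031685 at -2.38 ± 0.58 (edgeR adjusted p = 0.00136). Next came ENSRNOG00000032320 at -2.32 ± 0.38 (adjusted p = 2.09e-05). In sham anterior cortex ENSRNOG00000032320 had 32.3, 38.3 and 26.2 CPM in libraries 11, 13 and 15, which had few genes. Libraries 14 and 33 had 8.95 and 17.1 CPM. ENSRNOG00000031685 had 2.31, 0.884 and 1.57 CPM in the former and 0.801 and 0.390 CPM in the latter. The least changed were ENSRNOG00000031333 at -0.67 ± 0.40 and ENSRNOG00000032609 at -0.76 ± 0.33. Over all 6 pairs, ENSRNOG00000029145, ENSRNOG00000029954, ENSRNOG00000032112 and ENSRNOG00000032997 were each called in 4, ENSRNOG00000029070 and ENSRNOG00000032320 in 3, ENSRNOG00000029389 and ENSRNOG00000031685 in 2, and ENSRNOG00000031333, ENSRNOG00000032274, ENSRNOG00000032609 and ENSRNOG00000032882 in 1. Every such call had the region of lower mitochondrial share as the lower one.

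The other 3 pairs did not include the cerebellum. Their median member differences were smaller than that of cerebellum against hippocampus (-0.69), except for hippocampus against anterior cortex (-0.80). Hippocampus was lower than amygdala for 7 of 27 members, against 11.5% of all genes called lower and 20.7% in either direction, with a median member log2 fold change of -0.46. The called mRNAs were Mt-nd4l (-0.69 ± 0.21), Mt-nd2 (-0.61 ± 0.19), Mt-nd1 (-0.59 ± 0.17, edgeR adjusted p = 0.0142), Mt-atp8 (-0.55 ± 0.17) and Mt-cyb (-0.50 ± 0.18, adjusted p = 0.0482). The lowest values belonged to the tRNA genes ENSRNOG00000029954 (-1.21 ± 0.26, adjusted p = 0.00184) and ENSRNOG00000032112 (-1.09 ± 0.29, adjusted p = 0.00848), and the highest to ENSRNOG00000029389 (0.73 ± 0.61) and ENSRNOG00000032882 (0.07 ± 0.67), which were not called. Single libraries moved the number called from 3 to 9, with 3 left without amygdala library 33 and 4 without hippocampus library 11, hippocampus library 15 or the unnumbered amygdala library.

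Hippocampus was lower than anterior cortex for 23 of 27 members, against 21.7% of all genes called lower and 43.6% in either direction, with a median of -0.80. Mt-nd4l (-1.19 ± 0.21, edgeR adjusted p = 0.000149) and Mt-nd5 (-1.19 ± 0.22) were the lowest mRNAs, and the tRNA genes ENSRNOG00000032320 (-1.98 ± 0.37) and ENSRNOG00000029070 (-1.55 ± 0.43) the lowest members. The smallest differences were those of the tRNA gene ENSRNOG00000032274 (-0.14 ± 0.50) and Mt-nd3 (-0.15 ± 0.22, adjusted p = 0.604). With 1 library left out, the value of Mt-nd3 ran from -0.47 to -0.02. Sham library Hip_14 held 0.161% of library counts in Mt-nd3, against 0.0562 to 0.0812% in the other sham hippocampus libraries. Without the 3 sham anterior cortex libraries with few genes, 14 members were called and the median was -0.76. Of all genes, 4053 were then called in either direction, against 6847 with those libraries. Among sham anterior cortex libraries, those 3 had the highest levels of Mt-nd4l, Mt-nd5, ENSRNOG00000032320 and ENSRNOG00000029070. Amygdala was lower than anterior cortex for 4 of 27 members, against 11.4% of all genes called lower and 21.8% in either direction, with a median of -0.34: the tRNA genes ENSRNOG00000029389 (-1.97 ± 0.59, edgeR adjusted p = 0.0212) and ENSRNOG00000032320 (-1.77 ± 0.37, adjusted p = 0.00197), Mt-nd5 (-0.64 ± 0.22, adjusted p = 0.0401) and Mt-nd6 (-0.47 ± 0.16, adjusted p = 0.0420). The highest members in that pair were ENSRNOG00000029954 (0.04 ± 0.25) and Mt-nd3 (-0.00453 ± 0.22). Without the 3 sham anterior cortex libraries with few genes, all-gene calls fell from 3415 to 1088 and none of these 4 remained. The number of members called was 1 without anterior cortex library 13, amygdala library 11, amygdala library 15 or the unnumbered amygdala library. It was 2 without anterior cortex library 11, anterior cortex library 15 or amygdala library 14, and 10 without anterior cortex library 14.

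The depth scaling bears on these sizes. Without scaling factors the all-gene median moved by more than 0.1 in several pairs, most for cerebellum against anterior cortex, from 0.02 to 0.26. Relative to unscaled library totals, the numbers of members called lower were 13, 19 and 24 for cerebellum against hippocampus, amygdala and anterior cortex, and 8, 22 and 2 for hippocampus against amygdala, hippocampus against anterior cortex and amygdala against anterior cortex. The direction of every mRNA and rRNA was the same under both scalings except that of Mt-nd3 in amygdala against anterior cortex, which was -0.00453 with scaling and 0.09 without. Among all genes, 4672 were called higher and 4776 lower in cerebellum than in anterior cortex with scaling, and 6501 and 3795 without. For amygdala against anterior cortex the split was 1623 and 1792 with scaling and 2515 and 1275 without, and for hippocampus against anterior cortex 3449 and 3398 with and 4352 and 2708 without.

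Nuclear-encoded subunits of the same complexes were called in both directions in the cerebellum. Of all genes, 25.4%, 27.8% and 29.8% were called higher in the cerebellum than in hippocampus, amygdala and anterior cortex, beside the shares called lower given above. Their list, from complexes I to IV and ATP synthase, had 80 identifiers tested in the sham libraries. Against hippocampus, 8 were higher and 5 lower in the cerebellum by edgeR, with a median log2 fold change of -0.08 (0.05 without scaling). Against amygdala 15 were higher and 4 lower, with a median of 0.06, and against anterior cortex 38 were higher and 3 lower, with a median of 0.43. So the subunits were called less often than all genes in both directions against hippocampus and amygdala, and higher more often against anterior cortex, with no test of these shares. The matching medians of the mitochondrial members were -0.69, -1.17 and -1.49. In the 20 blast libraries 20 were higher and 4 lower, 17 higher and 11 lower and 27 higher and 5 lower in the same order, with medians of 0.09, -0.01 and 0.15. Of 15869 genes tested there, 4953 were higher and 4705 lower, 5081 higher and 5115 lower and 5129 higher and 4864 lower. Sham library Hip_14 held 1.25% of its counts in these subunits, against 0.682 to 0.828% in the other 9 hippocampus libraries. Without it 18 were higher and 2 lower in the cerebellum than in hippocampus, and the median was 0.12. Ndufs1, an iron-sulfur subunit of complex I, was higher in the cerebellum in each pair (0.55 ± 0.07, 0.66 ± 0.07 and 0.56 ± 0.07), as was Atp5f1a, the catalytic-head alpha subunit of ATP synthase (0.45 ± 0.09, 0.55 ± 0.09 and 0.61 ± 0.09). Without the 3 sham anterior cortex libraries with few genes the count against anterior cortex became 8 higher and 5 lower, with a median of 0.08, beside -1.37 for the members. Of all genes, 4019 were then higher and 4464 lower, against 4672 and 4776 with those libraries. The difference between nuclear and mitochondrial genes was not tested. Hippocampus against anterior cortex went from 41 higher and 1 lower to 0 and 1 when those libraries were left out, and its median from 0.50 to 0.12. It was 11 higher and 1 lower without Hip_14.

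**Figure D4:**
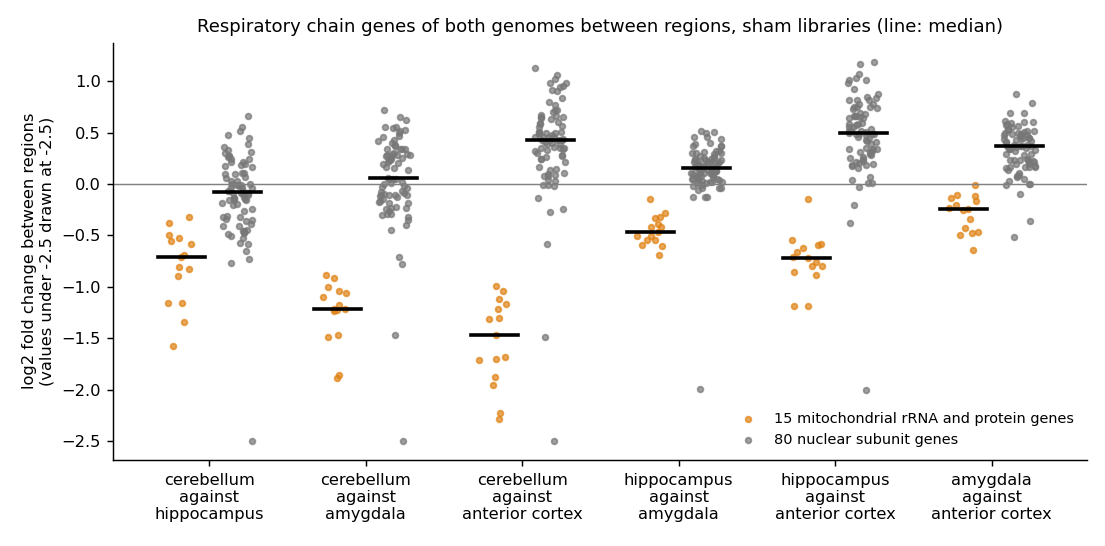
Log2 fold change in 6 pairs of regions in sham libraries (y axis) for the 15 mitochondrial mRNAs and rRNAs and for 80 nuclear-encoded subunit genes, 1 point per gene, with values under -2.5 drawn at -2.5. In the 3 pairs with cerebellum, all mitochondrial points lie below 0, while the nuclear genes have medians of -0.08, 0.06 and 0.43.

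Nuclear genes that handle mitochondrial RNA were called in both directions, more often higher in the cerebellum except for ribosomal proteins against hippocampus. Of all genes, 25.4%, 27.8% and 29.8% were called higher in the cerebellum than in hippocampus, amygdala and anterior cortex. Those called lower were 27.9%, 30.8% and 30.4%. Of 19 genes for RNA processing, stability and decay tested, 7 higher and 2 lower than in hippocampus, 12 higher and 1 lower than in amygdala and 10 higher and 1 lower than in anterior cortex passed edgeR's test. They included Pnpt1, a mitochondrial RNA-degrading nuclease (0.85 ± 0.12, 0.99 ± 0.12 and 0.82 ± 0.12), Trmt10c, part of the enzyme that cuts the precursor at tRNAs (0.42 ± 0.11, 0.71 ± 0.11 and 0.81 ± 0.11), and Ptcd3, a component of the small ribosomal subunit (0.62 ± 0.09, 0.73 ± 0.09 and 0.99 ± 0.09). Of 16 genes for transcription and replication of mitochondrial DNA, 3 higher and 0 lower, 3 higher and 1 lower and 9 higher and 1 lower passed in the same order of pairs, among them Polg, the catalytic subunit of the DNA polymerase, against hippocampus (0.48 ± 0.13) and amygdala (0.46 ± 0.13). The 75 mitochondrial ribosomal proteins gave 4 higher and 5 lower, 8 higher and 2 lower and 34 higher and 1 lower, with Mrps5 at 0.91 ± 0.16 against amygdala and 1.09 ± 0.16 against anterior cortex. Regulators of mitochondrial biogenesis, 11 tested, gave 6 higher and 2 lower, 8 higher and 2 lower and 5 higher and 3 lower, led by the nuclear receptor Esrrg (2.63 ± 0.17, 2.68 ± 0.17 and 1.49 ± 0.16). Without the 3 sham anterior cortex libraries with few genes, the ribosomal protein count against anterior cortex fell from 34 to 8 higher, with 3 lower, and that for transcription and replication from 9 to 5 higher, with 0 lower. Without Hip_14, the ribosomal proteins gave 11 higher and 3 lower against hippocampus, and the transcription and replication genes 5 higher and 0 lower. Without cerebellum library 14, the latter gave 6 higher and 1 lower against amygdala. In the 20 blast libraries the ribosomal proteins gave 17 higher and 7 lower, 10 higher and 12 lower and 26 higher and 1 lower. These lists were chosen with earlier results of these data known. All 5 microglial markers summed to less in the cerebellum than in any other region, as given above, and their part in the result was not tested.

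Exposure to blast 12 months earlier was compared with sham in each region separately. No member was called in the hippocampus, amygdala, anterior cortex or cerebellum by edgeR's quasi-likelihood test, and neither was any other gene, so 0% of genes were called in each region. DESeq2 called no member either, and 1, 20, 0 and 5 genes in the same order of regions. On simulated amygdala counts the test recovered 84.5% of 200 genes changed 2-fold, with 5 false calls. It recovered 54.8% of 199 genes changed 1.5-fold, with 11 false calls. Only the means and spread of the amygdala entered, so recovery in the other regions and of smaller changes is not known. Unadjusted p-values under 0.05 were reached by 2 of 24 members in the hippocampus against 1.89% of all genes, by 6 of 24 in the amygdala against 8.68%, by 2 of 26 in the anterior cortex against 4.32%, and by 1 of 24 in the cerebellum against 4.62%. The authors' deposited tables of differential expression gave no member an adjusted p under 0.05. All 35 had an adjusted p there except in the amygdala, where 15 had one and the 20 tRNA genes had none, among them ENSRNOG00000029954 with an unadjusted p of 0.00149. The smallest adjusted p of a member in these tables was 0.0654, for the large-subunit rRNA in the amygdala. The share of all genes that passed in the authors' comparison is not given here.

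In the hippocampus, 17 members had a positive and 7 a negative log2 fold change of blast against sham, with a median member log2 fold change of 0.11. Of the 7 complex I mRNAs, 6 had positive values of up to 0.25, and the smallest adjusted p among all mRNAs and rRNAs was 0.998. The members with the smallest p were the tRNA genes ENSRNOG00000032609 and ENSRNOG00000032997. ENSRNOG00000032609 had 4.83, 4.54, 2.24, 2.07 and 3.92 CPM in sham and 7.73, 6.10, 4.19, 5.77 and 5.27 in blast, with 3 sham libraries below all blast libraries and 2 among them. Its log2 fold change was 0.74 ± 0.28 (edgeR adjusted p = 0.998). ENSRNOG00000032997 had 2.76, 3.57, 3.65, 3.54 and 4.31 in sham and 7.39, 4.37, 3.60, 5.90 and 4.11 in blast, with overlap, and a log2 fold change of 0.52 ± 0.24 (adjusted p = 0.998). The large-subunit rRNA stood at -0.18 ± 0.14 and the small-subunit rRNA at -0.08 ± 0.14. Mt-nd6 stood at 0.02 ± 0.12 and Mt-co1 at 0.06 ± 0.12. Without the 3 libraries rich in Ttr, 0 of 25 members were called, 21 had a positive and 4 a negative value, and the median was 0.21. Without blast library 4 there were 11 positive and 13 negative, with a median of -0.01.

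In the amygdala, 4 members had a positive and 20 a negative log2 fold change of blast against sham, with a median of -0.18, or 7 positive and 17 negative with a median of -0.15 without scaling factors. Without sham library 33 there were 8 positive and 16 negative, with a median of -0.07. The large-subunit rRNA was the single member of 24 whose blast and sham libraries did not overlap, against 1.32% of all genes, with the shares given above. Its log2 fold change was -0.31 ± 0.09 (edgeR adjusted p = 0.459), so it was not called although all 5 blast libraries lay below the sham libraries. In the hippocampus, anterior cortex and cerebellum none of the 24, 26 and 24 members tested had groups apart, against 0.279%, 0.65% and 0.806% of all genes. The small-subunit rRNA stood at -0.20 ± 0.08. The tRNA gene ENSRNOG00000029954 had 7.67, 15.8, 12.7, 8.64 and 8.09 CPM in sham and 5.02, 6.63, 9.11, 6.67 and 5.47 in blast. The groups overlapped, and its log2 fold change was -0.71 ± 0.22 (adjusted p = 0.459). Mt-atp8 stood at -0.30 ± 0.10 and Mt-nd6 at -0.25 ± 0.10, against -0.13 ± 0.09 for Mt-co1 and -0.03 ± 0.10 for Mt-atp6.

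In the anterior cortex, 5 members had a positive and 21 a negative log2 fold change of blast against sham, with a median of -0.22, or 9 positive and 17 negative without scaling factors. The tRNA gene ENSRNOG00000032320, between Mt-nd3 and Mt-nd4l, had 32.3, 38.3, 8.95, 26.2 and 17.1 CPM in sham and 11.6, 21.9, 7.62, 9.88 and 12.9 in blast. The 4 highest values were those of the 4 libraries with few genes, 3 of them sham. Its log2 fold change was -1.01 ± 0.39 (edgeR adjusted p = 0.799), and -0.37 without those libraries. Mt-nd4 made up 0.221, 0.192, 0.106, 0.208 and 0.147% of library counts in sham and 0.147, 0.164, 0.118, 0.117 and 0.108% in blast, again with the same 4 libraries highest. Its log2 fold change of -0.49 ± 0.22 (adjusted p = 0.799) became -0.10 without them. The large-subunit rRNA, at -0.42 ± 0.20, became -0.25, the small-subunit rRNA, at -0.29 ± 0.15, became -0.20, and Mt-nd6, at -0.43 ± 0.21, became -0.18. Mt-co1 stood at 0.08 ± 0.24. Without sham library 11 alone, 12 members were positive and 14 negative, with a median of -0.07. Without the 4 libraries the median of the members was -0.14 and none had an unadjusted p under 0.05. The part of the few-gene libraries in the other differences was not tested.

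In the cerebellum, 10 members had a positive and 14 a negative log2 fold change of blast against sham, with a median of -0.03, or 15 positive and 9 negative with a median of 0.02 without sham library 14. ENSRNOG00000032997, the tRNA gene between Mt-nd6 and Mt-cyb, had 2.79, 2.20, 1.80, 1.98 and 2.06 CPM in sham and 4.0, 2.89, 2.77, 2.56 and 2.44 in blast. Sham library 11 lay within the blast range, and the log2 fold change was 0.43 ± 0.20 (edgeR adjusted p = 0.999). The large-subunit rRNA stood at -0.15 ± 0.08 and Mt-nd6 at -0.17 ± 0.09, while the small-subunit rRNA (-0.02 ± 0.05) and Mt-co1 (-0.03 ± 0.06) differed from 0 by less than their standard errors.

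Over all 40 libraries, the mean blast effect of the 4 regions was fitted with limma's voom and the library number as a random block. No member was called, and 1 gene of all was, which is 0.00611%. Unadjusted p-values under 0.05 were reached by 6 of 27 members against 8.35% of all genes. The large-subunit rRNA had the smallest p among them, with a mean log2 fold change of -0.26 ± 0.07 (limma adjusted p = 0.302) and a negative sign in all 4 regions. Its adjusted p ran from 0.219 to 0.302 over 3 versions of this model. The tRNA gene ENSRNOG00000031685 was next, at -1.27 ± 0.43 (adjusted p = 0.391).

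Few reads stood behind that tRNA. Its counts were 5, 10, 8, 7 and 6 in sham and 5, 0, 6, 6 and 0 in blast hippocampus, and 1, 11, 9, 7 and 7 in sham and 6, 3, 5, 4 and 11 in blast amygdala. In the anterior cortex they were 26, 11, 12, 18 and 5 in sham and 10, 14, 12, 10 and 0 in blast, and in the cerebellum 2, 1, 7, 7 and 1 in sham and 0, 0, 6, 0 and 2 in blast. As CPM, its 5 blast hippocampus libraries (0 to 0.393) lay below its 5 sham libraries (0.418 to 0.605), and the groups overlapped in the other 3 regions. It was 1 of the 11 members that did not pass the filter on low counts in the hippocampus. With libraries at 0 its fitted fold change depends on the offset added to each count. Mt-nd6 had a mean effect of -0.21 ± 0.08 (limma adjusted p = 0.478) and the small-subunit rRNA of -0.15 ± 0.06 (adjusted p = 0.492). A test of whether the blast effect differed between regions called no member and no other gene (edgeR, 0%), and 1 of 27 members, ENSRNOG00000032997, had an unadjusted p under 0.05 against 4.76% of all genes.

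Nuclear-encoded subunits of the respiratory chain had 0 calls in each blast comparison as well. In the hippocampus 9 had positive and 69 negative values of 78 tested, with a median of -0.11, where the median of the mitochondrial members was 0.11. That direction rested on sham library Hip_14: without it 74 were positive and 4 negative, with a median of 0.10, beside 0.10 for the members. In the amygdala 73 were positive and 7 negative of 80, with a median of 0.13 against -0.18 for the members, and in the anterior cortex 77 were positive and 2 negative of 79, with a median of 0.29 against -0.22. All-gene medians lay at -0.00392, -0.00102 and -0.0000476. Without the 4 anterior cortex libraries with few genes the nuclear count became 52 positive and 28 negative of 80, with a median of 0.03 against -0.14 for the members. In the cerebellum 57 were positive and 21 negative of 78, with a median of 0.029 against -0.030 for the members. Without sham cerebellum library 14 there were 17 positive and 61 negative. No test was made of the difference between the nuclear and the mitochondrial genes.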

How the data were processed

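Total RNA from 4 rat brain regions was sequenced, and 1 table per region was used here, all 40 libraries of which entered. Libraries were made from total RNA with a NEBNextUltraRNA kit, per the labels' protocols, which name no step of poly(A) selection or rRNA depletion. Raw gene counts were deposited by the authors beside normalized counts, a signal scaled per library, and FPKM values. The authors' deposited tables also hold log2 fold changes and p-values of their own comparison, of which only p-values are quoted. CASAVA appears in the submitters' processing notes. The sources used here name no aligner, counter, annotation or build. Only the raw counts were analysed.

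Genes were filtered with filterByExpr, scaled by TMM and tested two-sided with edgeR 4.0.16 (quasi-likelihood, R 4.3.3), separately in each region for blast and in 1 model of the 20 sham libraries for regions. The mean blast effect used limma 3.58.1, and the difference between regions edgeR on all 40 libraries. P-values were adjusted by Benjamini-Hochberg over all genes tested, and genes were called under 0.05. Tables were drawn up with pandas 2.3.3 and matplotlib 3.10.9, and DESeq2 1.42.0 served as an alternative. The blast test was checked on simulated amygdala counts. Library totals were 11268097 to 37128383, so 10 counts are under 1 CPM in every library.

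The genes and lists were chosen with earlier results of these data known. All mRNAs and rRNAs are described, tRNAs by name where they were called, the 2 most abundant, those with the smallest p in a blast comparison or the largest and smallest change between regions. Of each list the named genes are among the 3 with the smallest p. A further MT gene, absent from the hippocampus table, was left out. No 2 libraries of the same region and treatment agreed within sampling noise, over 80 pairs. Other pairs were not checked. The labels do not say what a shared number marks, and not every same-numbered pair of libraries deviated together, so no pairing was assumed in the region fits. The libraries with few genes or much Ttr and Hip_14 were identified after seeing the data. No sequences were printed, since the reference tables used here hold none for these genes.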

Additional observations from a re-analysis of the deposited data

Results flagged for a closer look

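Within groups of 5 libraries, the gap of the highest or lowest share of library counts to its neighbour, as a part of the group's range, was compared with Dixon's critical value of 0.71 for the summed share, mRNAs and rRNAs. Of 128 groups tested, 6 exceeded it, and chance alone gives about 5%. In sham hippocampus, Mt-atp8 in library 33 held 0.0142% against 0.00930 to 0.0106% in the others, and Mt-nd3 in library 14 held 0.161% against 0.0562 to 0.0812%. In blast hippocampus, library 4 stood apart for both Mt-nd4, at 0.206% against 0.0790 to 0.0908%, and Mt-nd5, at 0.776% against 0.556 to 0.614%. In blast anterior cortex, Mt-nd1 in library 4 held 1.35% against 1.09 to 1.15%. In sham cerebellum, Mt-nd5 in library 14 held 0.437% against 0.331 to 0.353%. Each of the 6 was the highest library of its group.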

How the results depend on the processing

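Across the alternatives, 422 counts of called genes or members and summed shares stayed near their main value, and 40 moved. Near meant within a fixed fold for counts and within the SD for summed shares. A count that went from 0 to above 0, or the reverse, had moved. Among single genes 1826 kept their direction and side of the threshold, 63 lost and 23 gained the call, and 31 turned sign. Unless a setting tests fewer libraries, the cause was not tested. Members called in blast comparisons were 0 under every alternative, with the smallest adjusted p at 0.119, in the anterior cortex in 1 model of 40 libraries. The large-subunit rRNA stayed negative in the amygdala (-0.35 to -0.23, adjusted p 0.186 to 1.00) and the anterior cortex (-0.54 to -0.25, adjusted p 0.142 to 0.999).

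Genes called by treatment rose from 0 to 20 (amygdala), 5 (cerebellum) and 1 (hippocampus) with DESeq2, to 2 in the amygdala without the filter, and in the anterior cortex to 34 in 1 model of 40 libraries and 2 without the 4 libraries with few genes. Leaving out 1 library gave 0 to 2 in the amygdala, 0 to 1 in the cerebellum and 0 to 1 in the hippocampus. For the mean effect, 1 gene became 0 without scaling and 2 without the replicate block.

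For amygdala against anterior cortex, 3415 genes became 1088 without the libraries with few genes and 2226 with the replicate block, and 4 members became 0 without those libraries, 2 without scaling, 2 with mitochondrial counts also left out of the totals, 1 with the replicate block, 7 in blast libraries, and 1 to 10 with 1 library left out. Hippocampus against anterior cortex went from 6847 to 4053 genes and from 23 to 14 members without the libraries with few genes. Hippocampus against amygdala gave 11 members with totals that omit mitochondrial counts, and 3 to 9 with 1 library left out.

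Values that turned sign were small or rested on few counts. In blast libraries they were ENSRNOG00000029954 (-0.45) and, for cerebellum, ENSRNOG00000029389 against amygdala (-0.91), ENSRNOG00000031333 (-0.039) and ENSRNOG00000032609 (-0.19) against hippocampus. ENSRNOG00000032274 in hippocampus against anterior cortex became 0.54 without the libraries with few genes, 0.062 with the replicate block and 0.13 in blast libraries. ENSRNOG00000032882 in hippocampus against amygdala became -0.44 with the replicate block. Mt-nd3 in amygdala against anterior cortex became 0.093 without scaling and 0.059 with mitochondrial counts also omitted. With 1 library left out, ranges that crossed 0 were -0.15 to 0.15 for ENSRNOG00000029954 and -0.10 to 0.093 for Mt-nd3 (amygdala against anterior cortex), -0.44 to 0.52 for ENSRNOG00000032882, -0.33 to 0.40 for ENSRNOG00000032274, and for blast -0.041 to 0.0076 (cerebellum) and -0.13 to 0.039 (hippocampus) for the small-subunit rRNA and -0.068 to 0.090 for Mt-nd6 in the hippocampus. With protein-coding members alone, the mean summed share was 12.4% in blast amygdala, 14.1% in blast anterior cortex, and 6.91% in blast and 6.87% in sham cerebellum, since the rRNAs are then left out.

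Same-numbered libraries of different regions had correlations of their deviations from -0.17 to 0.48 over 27 pairs, 10 of them over 0.1 (median 0.041), against 15 of 123 pairs with different numbers (median -0.015), and 9 of 19 numbered sham libraries correlated best with their own number. The replicate block gave 16, 19, 26, 8, 22 and 1 members called in the 6 pairs, in the order of the report. Within a region the blast and sham libraries share no number, so no paired test of blast was possible. Low counts limit the tRNAs, of which 9 to 11 of 20 averaged under 10 counts.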
